A study of Mus musculus with 8 samples.

Results

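Interferon-stimulated genes are the genes that cells switch on when they sense interferon, and 37 of them were followed here across the 4 groups of the study. They were chosen by gene symbol, with earlier results of these data known. Of the 37, 32 were measured by a probe set that the platform annotation gives to a single gene. Isg15, Gbp2, Igtp and Oas1g were measured only by probe sets shared with a second gene and Ifi44 had no listed probe set, so these 5 are named without values. The 32 measured genes are part of 19938 genes measured in the same way, and 30 of them lay outside the dimmest 30% of genes, the exceptions being Mx1 and Mx2.

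RNA came from bone marrow cells of C57BL/6J mice sorted as KLS or MEP cells, from wild-type mice (WT) or mice labelled ∆Hmga2 (TG), and the 4 groups were WT KLS, TG KLS, WT MEP and TG MEP. KLS cells carry the surface proteins c-Kit and Sca-1 and lack the lineage markers of mature blood cells, and this fraction contains the blood stem cells and multipotent progenitors. MEP cells are progenitors of red cells and platelets. Each group had 2 arrays, each array had its own RNA preparation, and each preparation pooled 4 or 6 mice, so an array is an average over animals. The series is titled as an overexpression of HMGA2, a chromatin-binding protein. What drives the transgene, how many transgenic lines were used and how old the mice were is all not given in the sources used here.

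Type I and type III interferons bind their receptors and activate the kinases Jak1 and Tyk2. Stat2 and Irf9 are then part of a complex that binds a DNA element called the interferon-stimulated response element (ISRE) in front of the target genes. Interferon gamma acts on a second element, the gamma-activated sequence (GAS). The target genes encode sensors of viral nucleic acid, proteins that block viral entry or replication, the ISG15 conjugation system and GTPases that attack intracellular pathogens. In blood, stem cells are known to keep some of these genes on in the absence of infection, genes of the Ifitm family among them, and interferon is known to drive resting stem cells into division.

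All levels are on a log2 scale, so a difference of 1 is a change of 2-fold, and levels of different genes are not set against each other because each probe set has its own brightness. Arrays of the same group correlated across genes at 0.981 to 0.988. Hmga2, the gene named by the genotype, was at 6.85 and 7.12 on the WT KLS arrays, 7.35 and 7.11 on the TG KLS arrays, 6.70 and 6.74 on the WT MEP arrays and 6.95 and 6.99 on the TG MEP arrays. Its TG and WT arrays overlapped in KLS cells and not in MEP cells, and the change over both cell types was 0.25 ± 0.11 (limma's standard error, SE), which did not pass (adjusted p = 0.999). The sources used here do not say whether its probe set lies in the part of the gene kept by the transgene.

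The sort labels were set against marker genes. Of 8 measured stem and progenitor markers, 5 were higher in KLS cells by the test and none lower. By mean, 7 were higher in KLS cells and 1, Mllt3, was higher in MEP cells (9.53 in KLS, 9.85 in MEP). Of 8 erythroid markers, 8 had a higher mean in MEP cells and 1, Tfrc, passed. The array WT MEP 1 stood apart from the other MEP arrays. The mean of 8 B-cell markers was 9.28 there, against 7.0 to 7.11 on the remaining MEP arrays and a KLS range from 7.69 to 8.22. All 8 of these B-cell markers were at their highest MEP value on WT MEP 1, as were 9 of 9 mature neutrophil, 6 of 9 monocyte and macrophage, 5 of 7 plasmacytoid dendritic, 5 of 9 T and NK cell, 4 of 8 stem cell and 0 of 8 erythroid markers. Values without this array are given beside many of the results below.

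The mean log2 level of the 32 interferon-stimulated genes was 7.24 and 7.41 on the WT KLS arrays, 7.39 and 7.30 on the TG KLS arrays, 7.33 and 7.04 on the WT MEP arrays and 6.99 and 7.16 on the TG MEP arrays. The 4 KLS arrays lay within 0.2 of each other, and among the MEP arrays WT MEP 1 was highest and lay inside the KLS range. On WT MEP 1, 19 of the 32 genes (59.4%) had their highest MEP value, against 25.8% of all genes. The part of the B-cell and myeloid markers in this difference was not tested. In a mixed sample, fewer cells that express a gene and less RNA of that gene per cell cannot be told apart.

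**Figure D1:**
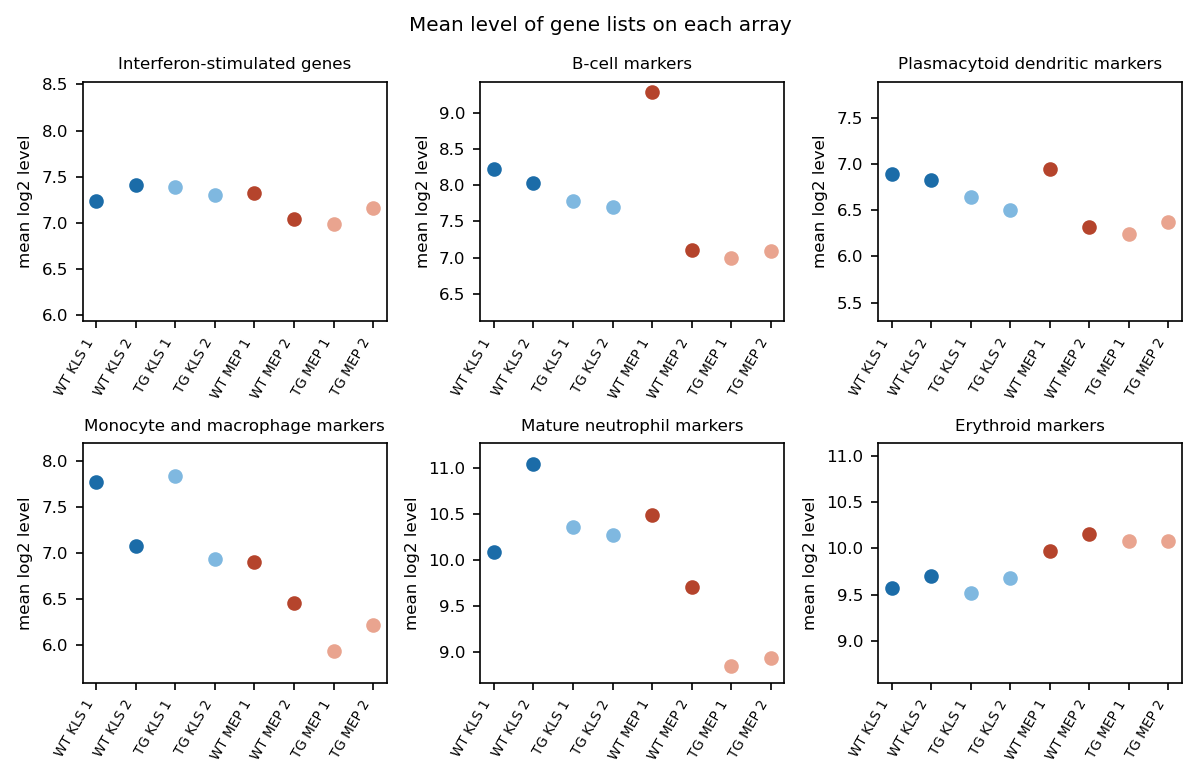
Mean log2 level (y axis, each panel with its own range) of the 32 interferon-stimulated genes and of 5 marker lists on each of the 8 arrays (x axis); 1 point is 1 array, coloured by group. The interferon-stimulated genes run from 6.99 on TG MEP 1 to 7.41 on WT KLS 2, and the B-cell markers stand at 9.28 on WT MEP 1 against 7.0 to 7.11 on the other MEP arrays.

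The comparison of KLS with MEP cells asks whether the stem and progenitor fraction and the erythroid and megakaryocyte progenitors hold different levels of these genes. Ifitm1 and Ifitm3, which encode small membrane proteins that interfere with viral entry, were higher in KLS cells, by 1.66 ± 0.19 and 0.61 ± 0.11 on the log2 scale (SE). They were 2 of the 32 measured genes (6.25%), and 1.20% of all 19938 genes passed in that direction. None of the 32 was lower in KLS cells by the test, against 0.396% of all genes. By limma's test 10 of the 32 (31.2%) had an unadjusted p under 0.05, against 14.3% of all genes. Higher in KLS cells were 8 of the 32 (25%), against 8.02% of all genes, and lower were 2 (6.25%), against 6.24%. With WT MEP 1 left out, 12 of the 32 had an unadjusted p under 0.05 in either direction, against 15.6% of all genes.

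The difference between cell types varied from gene to gene. Of the 32 genes, 22 (68.8%) had a higher mean in KLS cells, against 53.5% of all genes, and 10 in MEP cells. The median difference was 0.14, against 0.01 over all genes. All 4 KLS arrays lay above all 4 MEP arrays for 5 genes (15.6%), Ifitm1, Ifitm3, Oasl2, Rtp4 and Iigp1, against 4.41% of all genes. The reverse held for 0 of the 32, against 4.63% of all genes. Without WT MEP 1, the members' median was 0.20 and 5 genes passed, Ddx58, Ifitm1, Ifitm3, Oasl2 and Rtp4, while 2.92% of all genes passed as higher in KLS cells. That array held the highest MEP value for each of these 5 genes, though for Oasl2 by only 0.016 over the next. In the fit without it, WT MEP 2 is the whole WT MEP group and is assumed to vary as the other groups do. Oasl2 was at 6.45 on WT MEP 2, against 7.10 and 7.18 on the TG MEP arrays.

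**Figure D2:**
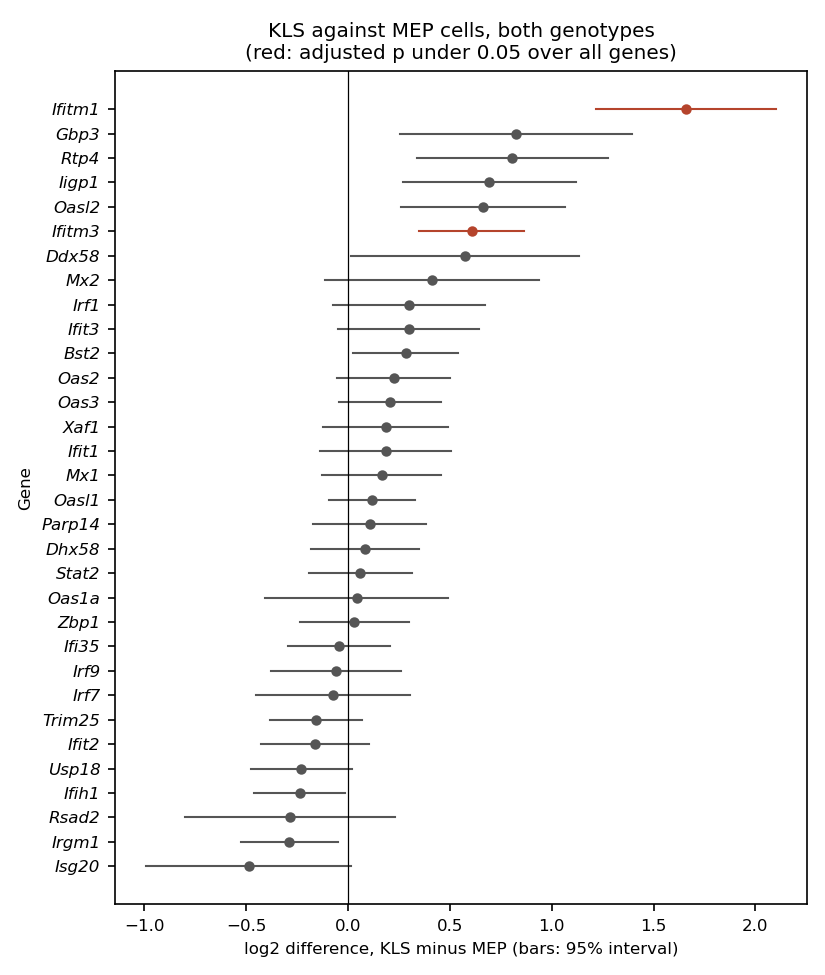
Log2 difference between KLS and MEP cells over both genotypes (x axis) for each of the 32 measured interferon-stimulated genes (y axis, ordered by the difference), with bars for limma's 95% interval. Ifitm1 at 1.66 and Ifitm3 at 0.61 are drawn in red because they passed over all genes, and the remaining differences run from -0.49 for Isg20 to 0.82 for Gbp3.

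The 4 measured transcription factors of the response did not pass between the cell types, and 2 had a higher mean in each. Stat2, a member of the ISRE-binding complex, averaged 7.11 ± 0.15 on the KLS arrays and 7.04 ± 0.11 on the MEP arrays (SD, n = 4 arrays each). Irf9, which gives that complex its DNA binding, averaged 7.58 ± 0.15 and 7.64 ± 0.21. Irf7, which amplifies production of type I interferon, averaged 6.15 ± 0.20 and 6.22 ± 0.30. Irf1, a factor strongly induced by interferon gamma, averaged 6.69 ± 0.24 and 6.39 ± 0.25. The 95% interval of the difference was -0.19 to 0.31 for Stat2, -0.38 to 0.26 for Irf9, -0.45 to 0.31 for Irf7 and -0.07 to 0.67 for Irf1. A second probe set of Irf1 differed by 0.57 where the one used differed by 0.30. Leaving out WT MEP 1, the difference of Irf1 was 0.42 (adjusted p = 0.276), and Irf7 and Irf9 turned sign, to 0.07 and 0.05.

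Among the sensors, none passed with all 8 arrays. Ddx58 encodes RIG-I, a cytoplasmic sensor of viral RNA, and its level was 7.62 and 7.73 on the WT KLS arrays, 7.92 and 7.32 on the TG KLS arrays, 7.88 and 6.69 on the WT MEP arrays and 6.72 and 7.01 on the TG MEP arrays. All KLS arrays were above 3 of the MEP arrays, and WT MEP 1 lay within the KLS range. The difference was 0.57 ± 0.25 with all arrays (adjusted p = 0.333) and 0.87 ± 0.17 without WT MEP 1 (adjusted p = 0.0354). Ifih1, which encodes the related sensor MDA5, had the opposite sign, 8.37 ± 0.13 in KLS and 8.61 ± 0.11 in MEP cells, and did not pass (adjusted p = 0.317). Dhx58, which encodes LGP2, a regulator of these RNA sensors, averaged 6.41 ± 0.17 and 6.33 ± 0.13. Zbp1, a sensor of left-handed nucleic acid that can start cell death, averaged 6.42 ± 0.08 and 6.39 ± 0.18.

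Of the 16 measured antiviral effectors, 2 passed as higher in KLS cells and none as lower, against 1.20% and 0.396% of all genes. These 2 are the Ifitm1 and Ifitm3 already counted above. The level of Ifitm1 was 10.16 and 10.66 on the WT KLS arrays, 10.52 and 10.15 on the TG KLS arrays, 9.37 and 8.63 on the WT MEP arrays and 8.61 and 8.26 on the TG MEP arrays. The lowest KLS array was above the highest MEP array, which was WT MEP 1. The difference of 1.66 (95% interval 1.22 to 2.10) had an adjusted p of 0.0105 and was 1.84 without WT MEP 1. A second probe set of Ifitm1 differed by 1.97 in the same direction.

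Ifitm3, whose protein sits in endosomal membranes and restricts influenza and other enveloped viruses, was at 11.58 and 11.97 on the WT KLS arrays, 11.85 and 11.85 on the TG KLS arrays, 11.35 and 11.21 on the WT MEP arrays and 11.10 and 11.15 on the TG MEP arrays. Here too the groups did not overlap between the cell types. The difference of 0.61 (95% interval 0.35 to 0.87) had an adjusted p of 0.0437. It did not pass on the values as deposited (adjusted p = 0.0570) or with each array centred on its median (0.0815). It also did not pass when WT KLS 2 (0.0769), TG KLS 1 (0.157), TG KLS 2 (0.0917), WT MEP 2 (0.128), TG MEP 1 (0.167) or TG MEP 2 (0.142) was left out. Ifitm1 did not pass without TG KLS 1 (adjusted p = 0.0523), TG MEP 1 (0.0629) or TG MEP 2 (0.0588), and its difference was 1.57, 1.74 and 1.57 in these fits.

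Ifitm2, a close relative outside the 37 genes, was also higher in KLS cells, at 10.33, 10.39, 10.50 and 10.10 on the WT and TG KLS arrays against 9.87, 9.66, 9.54 and 9.65 on the WT and TG MEP arrays, and the cell types did not overlap. The difference was 0.65 ± 0.12 (adjusted p = 0.0421), and its 3 probe sets differed by 0.65, 0.70 and 0.75. The test was not passed on the deposited scale (adjusted p = 0.0837), after median centring (0.149), or without WT KLS 1 (0.0936), WT KLS 2 (0.0826), TG KLS 1 (0.148), WT MEP 2 (0.126), TG MEP 1 (0.166) or TG MEP 2 (0.133). The 3 genes are neighbours on chromosome 7, in the order Ifitm5, Ifitm2, Ifitm1, Ifitm3, Ifitm6. Transcripts of such close relatives can cross-hybridise to each other's probes, and this was not tested. Marker lists were set beside these 3 differences. An unadjusted p under 0.05 by limma's test toward KLS cells was found for 8.02% of all genes. It was found for 9 of 9 mature neutrophil, 7 of 9 monocyte and macrophage, 3 of 7 plasmacytoid dendritic and 1 of 9 T and NK cell markers. In each of these lists 1 passed, among them Ngp by 1.22 and Ms4a6c by 2.10, against 1.20% of all genes. Of 8 B-cell markers 1 had such a p and 0 passed, and of 8 stem and progenitor markers 5 passed. The part of these markers in the Ifitm differences was not tested.

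The start-site windows of the 3 Ifitm genes that were higher in KLS cells are shown to set their ISRE matches side by side. They are RefSeq promoter sequences of the build GRCm38.p6, from position -100 to 30 around the annotated start, read 5′ to 3′ on the gene's own strand. Capitals mark matches to the ISRE core GAAANNGAAA or its reverse complement TTTCNNTTTC. The windows are chr7:140967976-140968105 on the plus strand for Ifitm1, chr7:141010715-141010844 on the minus strand for Ifitm3 and chr7:140955932-140956061 on the minus strand for Ifitm2.
Ifitm1: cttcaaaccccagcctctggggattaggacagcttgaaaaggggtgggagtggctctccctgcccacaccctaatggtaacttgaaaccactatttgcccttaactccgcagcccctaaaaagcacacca
Ifitm3: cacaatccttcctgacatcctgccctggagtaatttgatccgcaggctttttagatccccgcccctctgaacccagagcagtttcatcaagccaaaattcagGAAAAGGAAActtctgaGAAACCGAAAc
Ifitm2: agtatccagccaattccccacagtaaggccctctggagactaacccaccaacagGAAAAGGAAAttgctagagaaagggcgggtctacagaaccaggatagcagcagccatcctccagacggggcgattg
Ifitm3 held 2 matches, at positions 3 to 12 and 20 to 29 counted from the start site as 1, and Ifitm2 held 1, at positions -46 to -37. Ifitm1, with the largest difference between cell types of the 3, held none in this window or in the longer window from 250 bases before to 50 after the start.

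The remaining antiviral effectors did not pass. Oasl2, a relative of the oligoadenylate synthetases that make the activator of RNase L, was at 7.43, 7.89, 7.76 and 7.50 on the WT and TG KLS arrays and at 7.19, 6.45, 7.10 and 7.18 on the WT and TG MEP arrays. The cell types did not overlap, with WT MEP 2 far below the other arrays, and the difference was 0.66 ± 0.18 (adjusted p = 0.111). Its neighbour Oasl1, which represses translation of Irf7 in mice, was at 7.47, 7.62, 7.44 and 7.46 on the KLS arrays and at 7.29, 7.28, 7.45 and 7.51 on the MEP arrays, and these ranges overlapped. Bst2, or tetherin, which holds budding virus at the cell surface, was at 7.79, 8.11, 8.06 and 7.92 on the KLS arrays and at 7.47, 7.69, 7.84 and 7.75 on the MEP arrays. Of its KLS arrays only WT KLS 1 lay within the MEP range, and the difference was 0.28 ± 0.11 (adjusted p = 0.299).

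The oligoadenylate synthetases proper showed no difference that passed. Oas1a was at 6.53, 7.25, 7.20 and 7.33 on the WT and TG KLS arrays and at 7.12, 6.87, 6.72 and 7.43 on the MEP arrays, where each cell type spanned nearly the same range. Oas2 was at 7.03, 7.12, 6.56 and 7.02 on the KLS arrays and at 6.79, 6.63, 6.74 and 6.68 on the MEP arrays, so that TG KLS 1 was the lowest of all 8. Oas3 averaged 6.44 ± 0.06 in KLS and 6.23 ± 0.18 in MEP cells. The enzymes act by making short chains of adenylate that switch on an RNA-degrading enzyme.

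Isg20, an exonuclease that degrades viral RNA, had the lowest difference of the 32 genes, -0.49 ± 0.22 (adjusted p = 0.370). It was at 8.17, 9.25, 8.38 and 8.78 on the WT and TG KLS arrays and at 8.98, 9.31, 9.08 and 9.16 on the MEP arrays. WT KLS 2 lay within the MEP range and the other KLS arrays below it, and the difference was -0.22 without WT KLS 1 and -0.76 without WT KLS 2 (adjusted p = 0.0662). Rsad2, or viperin, which makes a chain-terminating nucleotide, differed by -0.28 ± 0.23, with levels that varied more by array than by cell type. It is described with the genotypes.

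The Ifit genes encode proteins that bind foreign RNA ends. Ifit1 averaged 5.95 ± 0.28 in KLS and 5.77 ± 0.17 in MEP cells, Ifit2 averaged 7.22 ± 0.20 and 7.38 ± 0.04, and Ifit3 averaged 5.99 ± 0.48 and 5.69 ± 0.21. Ifi35, a protein released as an alarm signal, averaged 7.03 ± 0.12 and 7.07 ± 0.11. Mx1 and Mx2, dynamin-like GTPases that trap viral particles, are listed as transcribed pseudogenes in the RefSeq table used here, and were among the dimmest 30% of genes. Mx1 averaged 5.26 ± 0.11 and 5.10 ± 0.30, and Mx2 averaged 5.37 ± 0.31 and 4.96 ± 0.62.

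In the group of the ISG15 system and other induced genes, none of 5 passed. Rtp4, a chaperone of receptors that interferon induces, was at 8.0, 8.33, 8.19 and 7.95 on the WT and TG KLS arrays and at 7.75, 6.93, 6.97 and 7.59 on the WT and TG MEP arrays. The cell types did not overlap, and the difference was 0.81 ± 0.21 with all arrays (adjusted p = 0.0984) and 1.01 ± 0.18 without WT MEP 1 (adjusted p = 0.0275). Xaf1, which antagonises an inhibitor of apoptosis, was at 7.02, 7.23, 7.18 and 7.68 on the KLS arrays and at 7.19, 6.93, 7.09 and 7.16 on the MEP arrays, with TG KLS 2 above the rest. Usp18, the protease that removes ISG15 and dampens receptor signalling, averaged 6.95 ± 0.18 in KLS and 7.18 ± 0.08 in MEP cells. Trim25, a ubiquitin ligase linked to RIG-I activation, averaged 8.39 ± 0.10 and 8.55 ± 0.05, and Parp14, an ADP-ribosyltransferase, averaged 7.72 ± 0.11 and 7.61 ± 0.24.

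The 3 measured interferon-inducible GTPases each had an unadjusted p under 0.05, against 14.3% of all genes, with a higher mean in KLS cells for 2 and in MEP cells for 1, and none passed. Gbp3, a guanylate-binding protein, was at 6.97, 6.68, 7.67 and 6.47 on the WT and TG KLS arrays and at 6.58, 5.99, 5.82 and 6.12 on the WT and TG MEP arrays. TG KLS 2 lay just below WT MEP 1, and TG KLS 1 was far above the rest. The difference was 0.82 ± 0.25 (adjusted p = 0.154), 1.12 without TG KLS 2 (adjusted p = 0.0378), 0.53 without TG KLS 1 and 0.97 without WT MEP 1 (adjusted p = 0.119). Iigp1, which attacks the vacuoles of intracellular parasites, averaged 6.11 ± 0.32 in KLS and 5.41 ± 0.23 in MEP cells, a difference of 0.69 ± 0.19 (adjusted p = 0.113). Irgm1, which regulates these GTPases and is needed for stem cell function in infected mice, was at 7.57, 7.47, 7.85 and 7.97 on the KLS arrays and at 7.98, 7.96, 7.90 and 8.17 on the MEP arrays. It was lower in mean in KLS cells, by -0.29 ± 0.10 (adjusted p = 0.235), and the WT KLS arrays were the lowest of the 8.

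**Figure D3:**
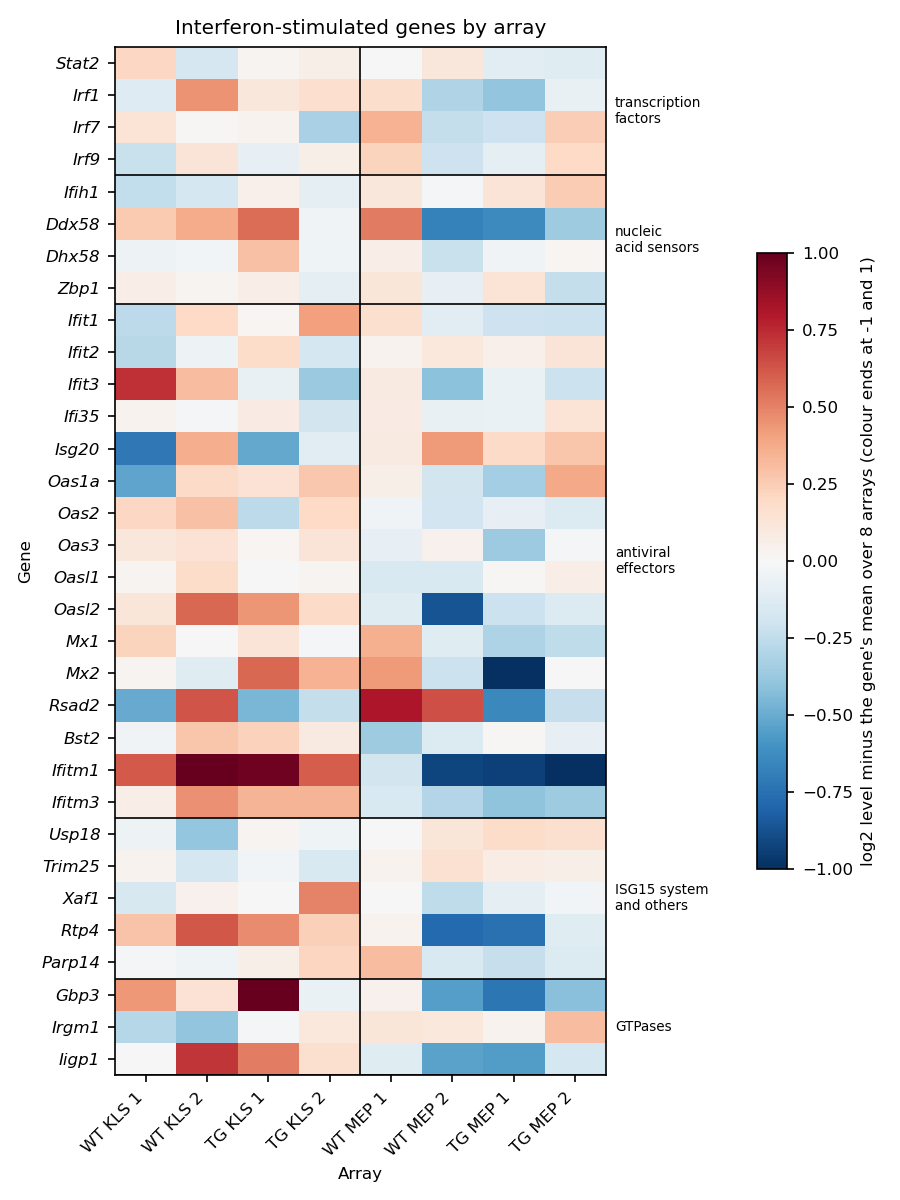
Log2 level of each of the 32 measured interferon-stimulated genes (rows, grouped by role) on each of the 8 arrays (columns), shown as the difference from the gene's own mean over the arrays; red is above and blue below that mean. Ifitm1 and Ifitm3 are red on the KLS arrays and blue on the MEP arrays, while Ddx58, Mx1, Mx2 and Rsad2 are red on WT MEP 1.

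Upstream of these genes lie the interferon receptors. All 6 measured receptor chains had a higher mean in KLS cells, against 53.5% of all genes, with a median difference of 0.33. Of the 6, 1 passed, against 1.20% of all genes. The monocyte and macrophage markers had a median difference of 0.95 in the same direction and the mature neutrophil markers of 0.88, and their part in this was not tested. Ifnar2, a chain of the type I interferon receptor, was at 9.69, 9.73, 9.92 and 9.64 on the WT and TG KLS arrays and at 9.51, 9.06, 8.95 and 8.89 on the WT and TG MEP arrays, without overlap. The difference was 0.64 ± 0.13 (adjusted p = 0.0487). It passed without WT MEP 1 (0.75, adjusted p = 0.0159) and did not pass without any 1 of the other 7 arrays, where the adjusted p ran from 0.0667 to 0.174. It also did not pass as deposited (0.0999) or with median centring (0.165).

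None of the 15 interferon genes, 8 signalling genes or 12 genes of interferon induction passed between the cell types. The smallest p in each list belonged to Ifnl2, a type III interferon, with a difference of 0.24 ± 0.12 (adjusted p = 0.408), to Stat3, a transcription factor of cytokine signalling, with 0.77 ± 0.17 (adjusted p = 0.0672), and to Tlr7, an endosomal sensor of single-stranded RNA, with 0.57 ± 0.13 (adjusted p = 0.0671). Tlr7 was among the dimmest 30% of genes. The difference of Ifnl2 was 0.15 without WT MEP 1. The median difference was 0.00 for the interferons, 0.00 for signalling and 0.06 for induction, against 0.01 over all genes. Stat3 passed without WT MEP 1 (0.93, adjusted p = 0.0224).

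A further list of 39 measured interferon-induced genes outside the 37 leaned toward KLS cells. Of these 39, 30 (76.9%) had a higher mean there, against 53.5% of all genes. An unadjusted p under 0.05 in that direction was found for 18 (46.2%), against 8.02% of all genes, and in the other direction for 0, against 6.24%. Of the 39, 1 passed, Ifitm2. The median difference of the list was 0.34, against 0.14 for the 32 genes and 0.01 for all genes. The mean log2 level of the list was 7.42 on WT MEP 1, inside the KLS range of 7.23 to 7.45. On the other MEP arrays it ran from 6.83 to 6.96. The part of the monocyte, macrophage and neutrophil markers in the lean of this list was not tested.

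The comparison of TG with WT cells asks whether the ∆Hmga2 mice differ in these genes. None of the 32 genes passed in either cell type, over the cell types together, or in the difference between them. The same held for all 19938 genes (0 called, 0.00%, in each of these 4 tests). By limma's test an unadjusted p under 0.05 was found for 2 of the 32 (6.25%), Ifit3 and Irgm1, in KLS cells, against 2.51% of all genes. In MEP cells it was found for 1 (3.12%), Rsad2, against 3.71%. Over the cell types together it was found for 2 (6.25%), Ifit3 and Rsad2, against 3.26%, and for the difference between them for 2, Ifit3 and Mx2, against 2.27%. The members' median change was -0.02 in KLS cells and -0.03 in MEP cells, against -0.02 and -0.01 over all genes. The 95% interval of the change lay within 1 on either side of 0, that is within 2-fold, for 27 of the 32 genes in each cell type.

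With 2 arrays against 2, the groups separated for many of all genes measured. In KLS cells the TG and WT arrays did not overlap for 8 of the 32 genes (25%), against 29.0% of all genes. Ifih1, Mx2, Usp18, Parp14 and Irgm1 were higher on both TG arrays, and Ifit3, Oas2 and Oasl1 were lower. In MEP cells the arrays did not overlap for 10 of the 32 (31.2%), against 30.2% of all genes. Ifih1, Oasl1, Bst2 and Usp18 were higher there on both TG arrays, and Stat2, Ifit1, Mx1, Rsad2, Ifitm1 and Ifitm3 were lower. Ifih1 and Usp18 were the 2 genes (6.25%) above in both cell types, against 2.08% of all genes, and 0 were below in both, against 2.89%. The shares within a cell type lie near those of all genes, and 2 genes are too few to read.

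**Figure D4:**
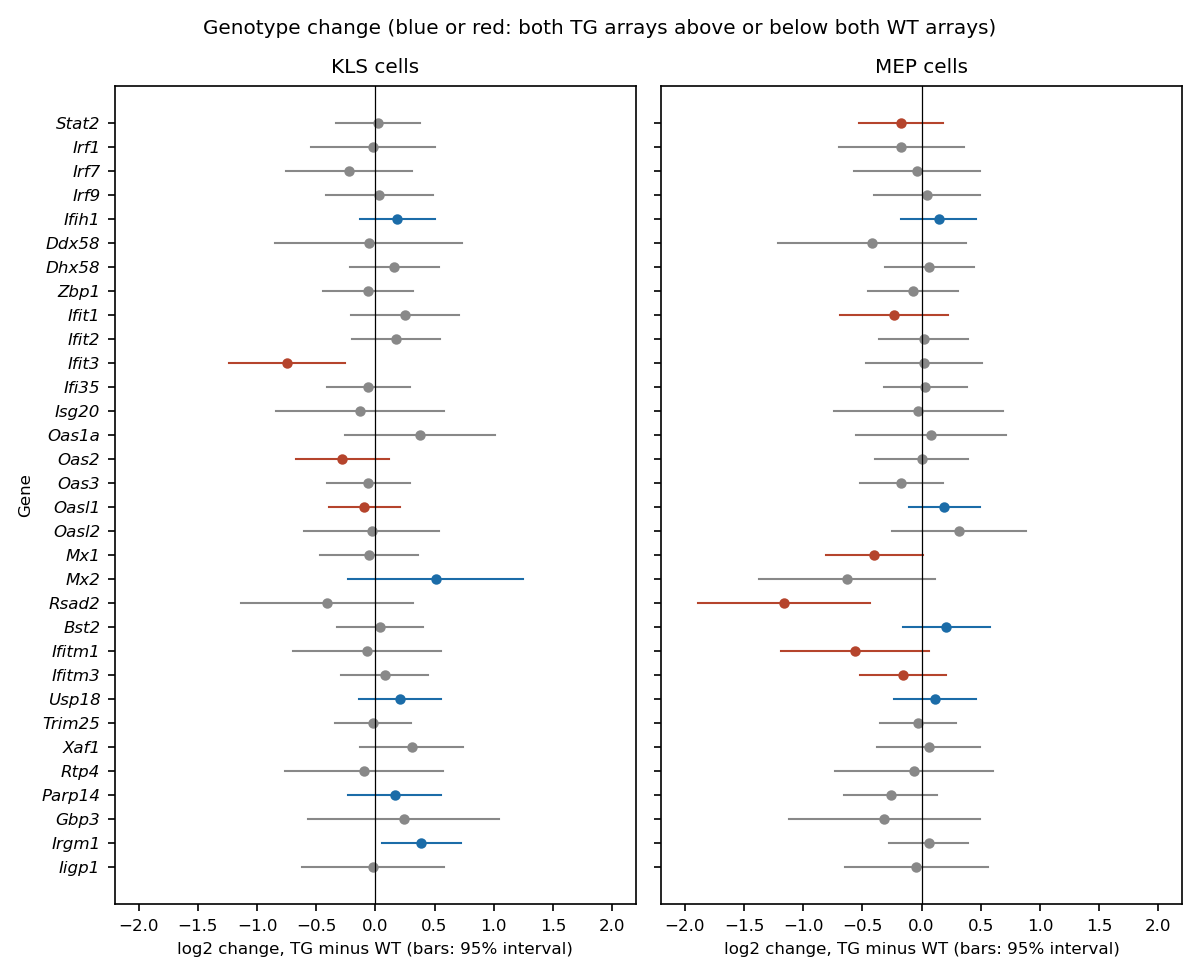
Log2 change between TG and WT arrays (x axis) in KLS cells (left) and MEP cells (right) for each of the 32 measured interferon-stimulated genes (y axis), with bars for limma's 95% interval. Blue marks genes whose TG arrays both lay above the WT arrays and red those below; Ifit3 in KLS cells (-0.74) and Rsad2 in MEP cells (-1.17) have intervals below 0 and none passed over all genes.

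Rsad2 had the largest genotype change of the 32 genes. It was at 7.48 and 8.61 on the WT KLS arrays, 7.52 and 7.75 on the TG KLS arrays, 8.79 and 8.62 on the WT MEP arrays and 7.34 and 7.75 on the TG MEP arrays. Both TG MEP arrays lay below both WT MEP arrays, while in KLS cells the WT arrays were 1.13 apart and enclosed the TG arrays. The change was -1.17 in MEP cells (95% interval -1.89 to -0.44, adjusted p = 1.00) and -0.41 in KLS cells (-1.14 to 0.32). Without WT MEP 1 the change in MEP cells was -1.08, and without WT KLS 2 the change in KLS cells was 0.16.

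Ifit3 was at 6.57 and 6.15 on the WT KLS arrays, 5.76 and 5.47 on the TG KLS arrays, 5.93 and 5.43 on the WT MEP arrays and 5.77 and 5.63 on the TG MEP arrays. The TG KLS arrays lay below the WT KLS arrays and within the range of the MEP arrays. The change was -0.74 in KLS cells (95% interval -1.23 to -0.26, adjusted p = 1.00) and 0.02 in MEP cells (-0.47 to 0.51). The test of the difference between these changes gave -0.76 ± 0.30 and did not pass (adjusted p = 1.00). Without WT MEP 1 the change in MEP cells was 0.27 and the difference -1.01 (adjusted p = 1.00). The change in KLS cells was 0.25 ± 0.20 for Ifit1 and 0.17 ± 0.16 for Ifit2, 2 genes of the same family that did not pass either.

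The promoters of Ifit3 and Rsad2 are shown because these genes had the largest genotype changes in 1 of the cell types each, Ifit3 in KLS and Rsad2 in MEP cells. The sequences run from position -160 to -31 relative to the annotated start in GRCm38.p6 (RefSeq), with ISRE matches in capitals, at chr19:34583369-34583498 on the plus strand for Ifit3 and chr12:26456483-26456612 on the minus strand for Rsad2.
Ifit3: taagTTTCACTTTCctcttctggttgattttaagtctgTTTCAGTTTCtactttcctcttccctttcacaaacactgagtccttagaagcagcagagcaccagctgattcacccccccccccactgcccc
Rsad2: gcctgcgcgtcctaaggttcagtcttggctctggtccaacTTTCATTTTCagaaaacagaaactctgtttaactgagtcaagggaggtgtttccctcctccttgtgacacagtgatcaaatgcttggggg
Ifit3 held 2 matches, at positions -156 to -147 and -122 to -113, and Rsad2 held 1, at positions -120 to -111.

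Mx2 had the largest difference between the genotype changes of the 2 cell types. It was at 5.19 and 5.04 on the WT KLS arrays, 5.74 and 5.51 on the TG KLS arrays, 5.59 and 4.95 on the WT MEP arrays and 4.11 and 5.17 on the TG MEP arrays. The change was 0.51 in KLS and -0.63 in MEP cells, and their difference of 1.14 ± 0.46 did not pass (adjusted p = 1.00). The TG MEP arrays were 1.06 apart, and the difference was 0.61 without TG MEP 1, 1.67 without TG MEP 2 and 0.82 without WT MEP 1. Irgm1 changed in mean by 0.39 ± 0.15 in KLS cells and 0.06 ± 0.15 in MEP cells.

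The Ifitm genes that separated the cell types showed no genotype change that passed. Ifitm1 averaged 10.41 ± 0.36 in WT and 10.34 ± 0.26 in TG KLS cells, and 9.0 ± 0.52 in WT and 8.44 ± 0.25 in TG MEP cells (SD, n = 2 arrays each). The change in MEP cells was -0.56 (95% interval -1.19 to 0.06), and -0.19 without WT MEP 1. Ifitm3 averaged 11.77 ± 0.28 in WT and 11.85 ± 0.00 in TG KLS cells, and 11.28 ± 0.10 in WT and 11.12 ± 0.03 in TG MEP cells. The 0.00 arises because both TG KLS arrays held the same value after quantile normalization. It is no sign that the 2 preparations had no spread. The interval of its change was -0.29 to 0.44 in KLS and -0.52 to 0.21 in MEP cells, where the change was -0.16, and -0.09 without WT MEP 1.

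WT MEP 1 bears on each change in MEP cells. The members' median change there was 0.07 when WT MEP 1 was left out and -0.15 when WT MEP 2 was. Without WT MEP 1 the change in MEP cells turned sign for 7 of the 32 genes, Irf1, Irf7, Ddx58, Zbp1, Ifit2, Rtp4 and Iigp1, and moved by over 1.5 times for 19 more. In the fit without WT MEP 2, WT MEP 1 is the whole WT MEP group and is assumed to vary as the other groups do. In that fit 144 genes passed in MEP cells, all lower in TG cells and none of them among the 32. B-cell markers had a median change of -1.15 in MEP cells and mature neutrophil markers of -1.25, with all 8 and all 9 below 0. The B-cell mean was 7.11 on WT MEP 2, against at most 7.09 on the TG MEP arrays. The neutrophil mean was 10.49 on WT MEP 1 and 9.71 on WT MEP 2. On TG MEP 1 and TG MEP 2 it was 8.85 and 8.94. Leaving out WT MEP 1 thus left WT MEP 2 above both TG MEP arrays in the neutrophil mean. The part of these markers in the members' changes was not tested. In KLS cells the same lists had medians of -0.36 and -0.26.

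**Figure D5:**
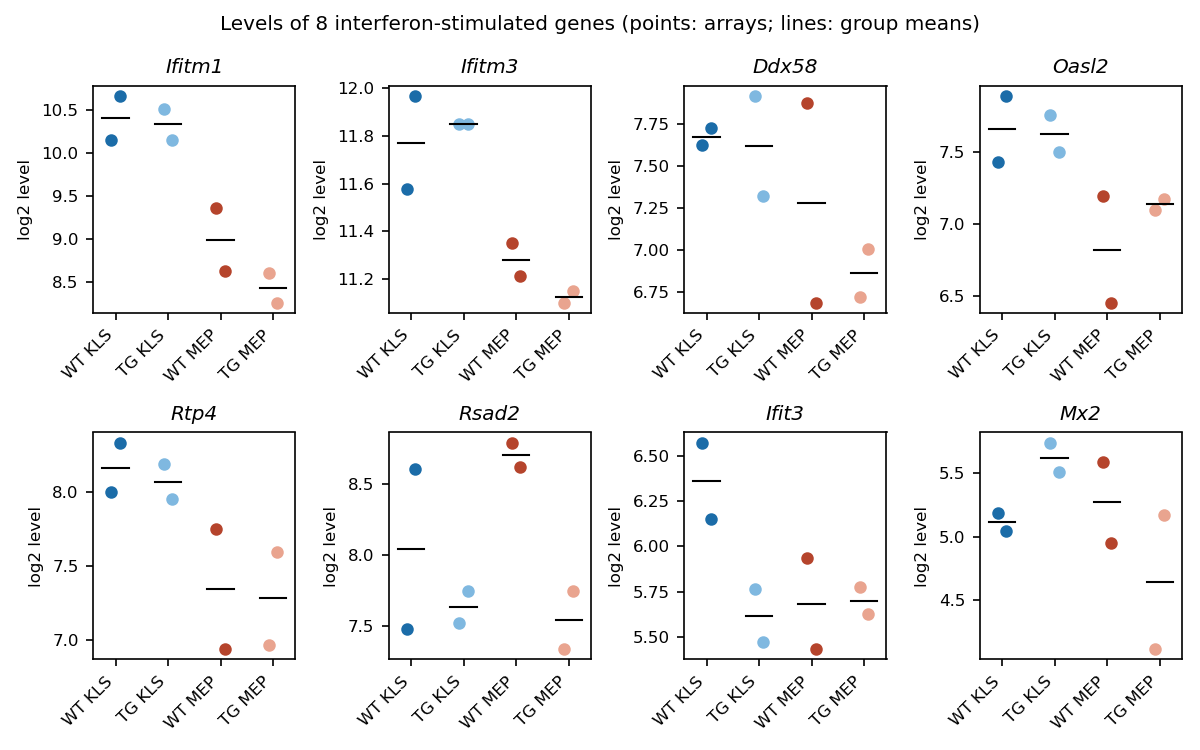
Log2 level (y axis, each panel with its own range) of 8 interferon-stimulated genes on each array, by group (x axis); points are arrays and lines are means of 2 arrays. The KLS arrays lie above the MEP arrays for Ifitm1, Ifitm3, Oasl2 and Rtp4, WT MEP 1 lies within the KLS range for Ddx58, and the WT KLS arrays of Rsad2 are 1.13 apart.

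None of the upstream genes passed by genotype either. The smallest p in KLS cells belonged to Ifnl2 among the interferons (-0.49 ± 0.16), Ifnar1, a chain of the type I receptor (-0.18 ± 0.29), Ptpn2, a phosphatase that dampens Jak and Stat signalling (0.46 ± 0.14), Tlr7 (0.35 ± 0.18) and Gbp11 (-0.47 ± 0.17). As the mean of its probe sets Ptpn2 was -0.00067 in KLS cells and -0.0333 over both cell types, so its sign turned. Tlr7, Gbp11 and Ifi205 were among the dimmest 30% of genes. In MEP cells it belonged to Ifna5, a type I interferon (0.58 ± 0.29), Ifngr2, a chain of the interferon gamma receptor (-0.70 ± 0.32), Stat3 (-0.54 ± 0.24), Irf8, a factor of myeloid development (-0.46 ± 0.29) and Gbp9 (-1.04 ± 0.32). Without WT MEP 1 these changes were 0.33 for Ifna5, -0.18 for Ifngr2, -0.22 for Stat3, -0.07 for Irf8 and -0.49 for Gbp9. Gbp9 was at 7.50 on WT MEP 1 and 6.39 on WT MEP 2, against 5.68 and 6.12 on the TG MEP arrays, and it passed in the fit without WT MEP 2, which leaves WT MEP 1 as the only WT MEP array (-1.60, adjusted p = 0.0332). Over both cell types the smallest p belonged to Ifnl2 (-0.23 ± 0.12), Ifnar1 (-0.31 ± 0.21), Ptpn2 (0.26 ± 0.10), Irf5, a factor downstream of Toll-like receptors (-0.13 ± 0.09), and Gbp11 (-0.39 ± 0.12). For the difference between the genotype changes it belonged to the interferon Ifnk (0.97 ± 0.34), Ifngr2 (0.78 ± 0.45), Ptpn2 (0.40 ± 0.20), Tlr7 (0.54 ± 0.26) and the DNA-binding Ifi205 (1.19 ± 0.43). This value was 0.26 for Ifngr2 and 0.74 for Ifi205 without WT MEP 1, and as the mean of its probe sets 0.07 for Ptpn2. The adjusted p of these genes was 0.999 to 1.00 with all arrays.

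The genes were chosen as interferon targets, so ISRE and GAS matches in their promoters describe that choice and are no independent result. RefSeq windows from 250 bases before to 50 after the start were given for 28 of the 37 genes, and 16 of the 28 (57.1%) held the ISRE core GAAANNGAAA on either strand, against 3.99% of 27025 genes. The GAS motif TTCNNNGAA, which reads the same on both strands, was in 8 of 28 (28.6%), against 9.55%. Matches of one motif can overlap each other or the other motif, as in Ifitm3, where a GAS match starting at position 14 runs into the second ISRE match. Of the 12 measured genes with an ISRE match and a promoter, 9 had a higher mean in KLS cells, with a median difference of 0.20 and 1 that passed, Ifitm3. Of the 11 without, 5 had a higher mean in KLS cells, with a median of -0.04 and 1 that passed, Ifitm1. Over all genes 53.5% had a higher mean in KLS cells, the median was 0.01 and 1.20% passed as higher. The split covers only the 23 measured genes with a promoter window, and the difference between its 2 parts was not tested. A match is a description of the letters in the window and not a measured binding site.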

How the data were processed

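The authors deposited log2 values for 35556 probe sets on 8 arrays; the scale was read from the values, which run from 1.71 to 14.0. The submitters' processing notes name Affymetrix Expression Console. The sources used here do not state how values were summarized and normalized. The array medians spanned 0.106, and values were quantile normalized. Probe sets with 1 symbol (21789; 1621 have several) were used, taking the brightest of a gene over all arrays, which gave 19938 genes. The number of arrays limits the precision.

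Fits used limma's lmFit, contrasts.fit and eBayes (limma 3.58.1, R 4.3.3), with 1 mean per group over all arrays (4 residual and 4.82 prior degrees of freedom). P-values are two-sided with Benjamini-Hochberg adjustment over the 19938 genes, and a gene passed at an adjusted p under 0.05. The procedure was tested on simulated data. All 32 measured members matched a RefSeq table of GRCm38.p6, used for names and neighbours.

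The members and lists were chosen with earlier results of these data known. Every array's value is given for members that passed, had the 3 largest changes in a direction, or the smallest p of a comparison, and for Ddx58, added after its values were seen. Pathway genes are named where they passed, or where their p was the smallest of a list. Alternatives were other scalings, a filter on dim genes, the mean over probe sets, other variance priors, array weights, a replicate block, each cell type alone and leaving out each array. The array weights were equal for the 2 arrays of each group, so they could not weigh down a single array such as WT MEP 1.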

Additional observations from a re-analysis of the deposited data

Results flagged for a closer look

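Within the 4 arrays of a cell type, 5 of 66 sets of values (32 genes and their array median in each cell type) had an array far from the other 3, where chance gives about 3.3. Dhx58 was at 6.66 on TG KLS 1, above the other KLS arrays. Oas1a was at 6.53 on WT KLS 1 and Oas2 at 6.56 on TG KLS 1, each below the other KLS arrays. Oasl1 was at 7.62 on WT KLS 2, above the other KLS arrays, and Oasl2 was at 6.45 on WT MEP 2, below the other MEP arrays. No member had a genotype change that differed between the cell types by the test of that difference.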

How the results depend on the processing

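With 2 arrays per group, calls depend on single arrays. The number of genes that passed between KLS and MEP cells was 319 (240 higher and 79 lower in KLS cells), 123 with median centring (79 and 44), 562 with the replicate block and 1 (without TG MEP 1) to 738 (without WT MEP 1) when an array was left out. The members that passed as higher were 2, 1 as deposited, 1 with median centring, and 0 (without TG KLS 1, TG MEP 1 or TG MEP 2) to 5 (without WT MEP 1) when an array was left out. The members' median difference between cell types ran from 0.10 to 0.20 when an array was left out. By genotype 0 genes passed. The replicate block gave 1 gene over both cell types, and leaving out an array gave 0 to 144 in MEP cells, 0 to 67 over both and 0 to 10 for the difference between cell types, each highest number without WT MEP 2; none was a member. The members' median change in KLS cells ran from -0.0583 to 0.16 and in MEP cells from -0.15 to 0.07. The median level on TG KLS 1 was 7.32, and 7.46 without the dimmest 30% of genes, which drops Mx1 and Mx2.

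None of the genotype values that turned sign had passed. In KLS cells Ifitm1 (-0.07) was 0.0146 with median centring, 0.0467 as the mean of its probe sets and -0.33 to 0.18 with an array left out. Ptpn2 was -0.00067 in KLS cells and -0.0333 over both as the mean of its probe sets. With an array left out, the change in KLS cells ran from -0.12 to 0.27 for Ifitm3, -0.56 to 0.20 for Ifnar1 and -0.97 to 0.16 for Rsad2. In MEP cells it ran from -0.0540 to 0.69 for Oasl2, and over both cell types from -0.14 to 0.0582 for Ifitm3. The difference between the genotype changes ran from -0.0398 to 1.15 for Gbp3 and from -0.72 to 0.0238 for Oasl2. Of 1008 values of single named genes under the alternatives, 961 kept their direction and their side of the threshold. Of the rest, 28 fell out of the call, 5 entered it and these 14 turned. All 28 that fell out were differences between KLS and MEP cells of Ifitm1, Ifitm3, Ifitm2 and Ifnar2. These were the only members or pathway genes that had passed with all arrays. No genotype value had passed, so none could fall out, and the 961 are no measure of how stable the calls were. The cause of these changes was not tested.

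The sources used here do not say whether the replicate numbers in the titles pair the samples. The deviations of same-numbered arrays correlated at 0.38, 0.18 and 0.35 between WT KLS, TG KLS and WT MEP. Between these and TG MEP they correlated at -0.17, -0.28 and -0.21. Such mixed signs do not settle whether some of the arrays were paired. With the replicate block Ifitm1 (adjusted p = 0.00620) and Ifitm3 (0.0382) passed between cell types, as did Stat3 (0.0432).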

Other observations

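Genes of the same pathway outside the 37 differed in how often their RefSeq promoter window held the ISRE core. It was found in 17 of 33 further interferon-induced genes (51.5%), in 10 of 18 interferon genes (55.6%), in 2 of 11 genes of interferon induction and in 1 of 7 signalling genes, against 3.99% of all genes in the promoter table. It was found in 0 of 5 receptor genes, which are too few to differ from a share of 3.99%.

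The spread within a group was uneven across the interferon-stimulated genes. Replicate arrays lay more than 2-fold apart for 2 of the 32 genes in WT KLS cells and 1 in each of the other groups, Gbp3 in TG KLS (1.19), Ddx58 in WT MEP (1.19) and Mx2 in TG MEP cells (-1.06, all as the first minus the second array). Over all genes the share more than 2-fold apart was 1.12% in WT KLS, 0.612% in TG KLS, 2.11% in WT MEP and 0.557% in TG MEP cells. In WT MEP cells 25 of the 32 genes were higher on the first array than on the second, by a median of 0.25.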
